A study of Mus musculus with 16 samples.

Results

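Signals of vascular endothelial growth factor (VEGF) work through a small family of genes, and all 10 family members with a probe of that name on the microarray were followed here. These are the ligands *Vegfa*, *Vegfb*, *Vegfc*, *Figf* (now named *Vegfd*) and *Pgf*, the receptors *Kdr*, *Flt1* and *Flt4*, and the neuropilins *Nrp1* and *Nrp2*. Their probes were taken by gene name, and the members were chosen with earlier results of these data known. They had 15 of the 55681 probes on the array. In all, the probes carry 34821 gene names.

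The samples were cardiomyocytes (CMs) of wild-type CD1 mice, which a flow sorter had split by how much α6 integrin (ITGA6, CD49f) they carried on their surface. At embryonic day 15.5 (E15.5), cells positive for the CM surface protein ERBB-2 were sorted into ITGA6low (EL) and ITGA6high (EH) cells. At postnatal day 2 (P2), non-myocytes were first removed with magnetic beads, with no ERBB-2 step, before sorting into ITGA6low (PL) and ITGA6high (PH) cells. Each group had 4 samples, from 4 independent experiments per stage. The labels number the embryonic samples 2, 3, 6 and 8 and the neonatal ones 2, 3, 4 and 5, and values are listed in this order. A sample came from 20 to 30 pooled embryonic or 15 pooled neonatal hearts and at least 50000 sorted cells, and was hybridized to a single-color Agilent array of its own, 16 in all. All values are normalized signals in arbitrary units, as mean ± SD with n = 4 arrays where an SD is given. A probe was taken as detected on an array where the scanner software marked it as well above background, and the software marked between 35.7% and 46.5% of all probes of an array so. The number of arrays limits the precision of every value. As RNA of a whole fraction was measured, fewer cells of a type and less RNA per cell cannot be told apart.

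VEGF ligands are secreted dimers that bind tyrosine kinase receptors, above all on endothelial cells. VEGF-A and its main signalling receptor VEGFR-2, encoded by *Kdr*, drive the growth of blood vessels. VEGFR-1, encoded by *Flt1*, binds VEGF-A, VEGF-B and PlGF and limits the VEGF-A that reaches VEGFR-2, and VEGFR-3, encoded by *Flt4*, is the receptor for VEGF-C and VEGF-D in lymphatic vessels. Neuropilins are co-receptors that also bind semaphorins, the guidance cues of axons and vessels. In the heart, myocytes are a main source of VEGF-A, and the endocardium and coronary endothelium carry the receptors.

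Probes of 60 bases were the measuring device, and 4 of the 10 genes had more than 1. Sequences are given for a probe of *Kdr* and of *Nrp1*, in lower case and 5′ to 3′, because results below turn on how these probes read beside the other probe or the other member of their kind. The *Kdr* probe A_55_P2094469 lies at chr5:76330395-76330454 on the minus strand of mm9 and the *Nrp1* probe A_51_P469285 at chr8:131026650-131026709 on the plus strand. A stop codon is absent from 2 reading frames of the *Kdr* probe and from 1 of the *Nrp1* probe. The frame of the transcript was not used, so coding and untranslated positions are not told apart.
Kdr A_55_P2094469: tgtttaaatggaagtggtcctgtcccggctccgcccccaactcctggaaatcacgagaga
Nrp1 A_51_P469285: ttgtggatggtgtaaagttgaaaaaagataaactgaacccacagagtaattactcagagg

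The promoters of *Kdr*, *Flt1* and *Nrp2* are shown because a probe of each of these genes was called higher in EH. They are the 250 bases before the start in RefSeq (GRCm38.p6), at chr5:75978456-75978705 (minus strand), chr5:147726012-147726261 (minus strand) and chr1:62703067-62703316 (plus strand). Capitals mark GGGCGG and its reverse complement CCGCCC, the core of a GC box, and TGACGTCA, the palindromic cAMP response element.
Kdr: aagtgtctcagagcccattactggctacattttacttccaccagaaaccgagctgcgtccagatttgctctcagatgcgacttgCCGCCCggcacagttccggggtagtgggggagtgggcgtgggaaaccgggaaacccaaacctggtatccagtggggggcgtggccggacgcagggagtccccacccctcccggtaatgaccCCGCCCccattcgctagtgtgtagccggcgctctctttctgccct
Flt1: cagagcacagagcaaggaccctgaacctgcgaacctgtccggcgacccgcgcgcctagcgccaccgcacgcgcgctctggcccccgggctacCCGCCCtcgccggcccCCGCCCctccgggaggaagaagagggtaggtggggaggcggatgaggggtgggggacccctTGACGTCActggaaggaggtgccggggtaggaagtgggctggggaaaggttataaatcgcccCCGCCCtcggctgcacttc
Nrp2: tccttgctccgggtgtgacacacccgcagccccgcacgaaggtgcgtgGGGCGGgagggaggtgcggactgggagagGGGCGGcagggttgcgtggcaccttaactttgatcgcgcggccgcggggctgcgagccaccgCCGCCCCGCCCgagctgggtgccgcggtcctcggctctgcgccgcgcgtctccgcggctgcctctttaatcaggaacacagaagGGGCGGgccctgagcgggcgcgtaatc
The GC box core occurs 2 times in *Kdr*, 3 times in *Flt1* and 5 times in *Nrp2*, with 1 overlapping pair in the last, and at least once in 32.7% of 32851 promoter windows of the same length. TGACGTCA occurs once, in *Flt1*, and in 1.5% of the windows. These matches describe the sequences only.

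Before the results, the labels were set against marker genes. The CM genes were detected throughout, with *Tnnt2* (cardiac troponin T) averaging 104726 in EL, 122378 in EH, 155885 in PL, 143409 in PH. The atrial light chain gene *Myl7* passed the test as higher in EH and in PH, and the ventricular repressor gene *Hey2* as lower in both. Of 5 atrial markers, 4 passed as higher in EH and 5 in PH, *Myl4* being the exception in EH. The 4 ventricular markers all passed as lower in both. The ventricular light chain gene *Myl2* still averaged 97505 in EH, against 214764 in EL, so that EH RNA was not free of ventricular transcripts. Most endothelial markers were higher in EH than in EL (11 of 14 passed). The signals of 14 endothelial and endocardial markers summed to 244.5 ± 45.3 in EL and 2273 ± 1600 in EH, and at P2 to 195.7 ± 25.7 in PL and 308.6 ± 30.4 in PH. Within EH the sums were 1029, 845.0, 4120 and 3099 in samples 2, 3, 6 and 8, so that samples 6 and 8 stood apart from 2 and 3, and all of them lay above the highest EL sample (308.4). *Cdh5*, the cadherin of endothelial junctions, averaged 6.67 (EL), 212 (EH), 5.44 (PL) and 8.33 (PH), and was detected on the 4 EH arrays and on 0 of the other 12. *Tie1*, an endothelial receptor kinase, followed with 5.25, 151, 3.29 and 3.88 and was also detected on the 4 EH arrays alone. Of the other defining markers, *Tek* was detected on 3 EH arrays and nowhere else, and *Pecam1* on 3 EH arrays and 1 PH array. The marker with the brightest probe in EH was *Cldn5*, a tight junction gene, which averaged 20.95 (EL), 512 (EH), 5.66 (PL) and 14.4 (PH). *Nfatc1*, an endocardial transcription factor, was the brightest in the other groups, with 78.5 (EL), 142 (EH), 96.3 (PL) and 179.5 (PH). The 5 leukocyte markers, of which 1 passed as higher in EH, summed to 2722 ± 3138 in EH, with 7413 in sample 6, against 839 ± 603 in EL, 337 ± 43.9 in PL and 280 ± 51.1 in PH. Several results below that involve EH are therefore also given without EH samples 6 and 8.

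**Figure D1:**
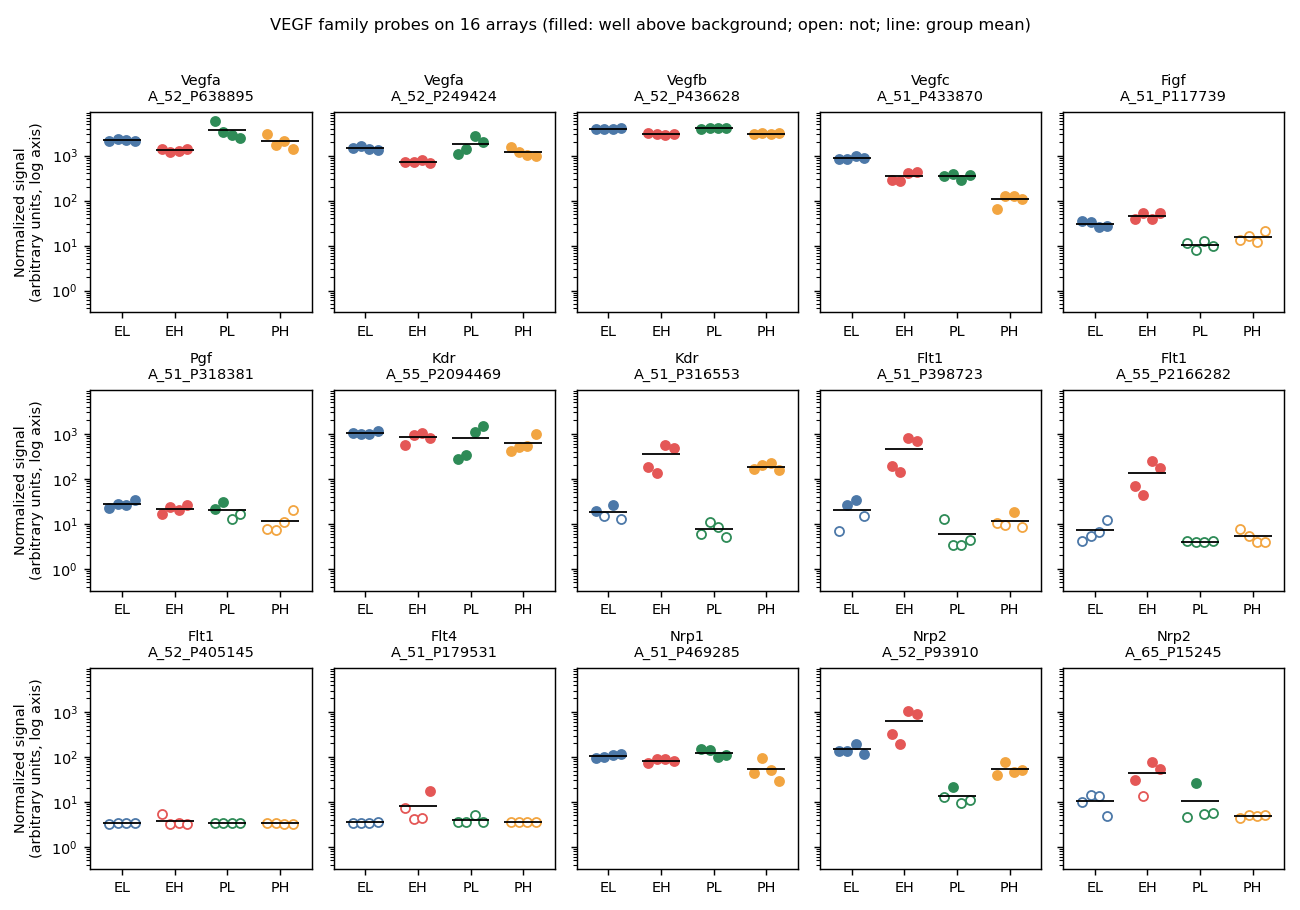
Normalized signal (arbitrary units, log axis) of every VEGF family probe on each of the 16 arrays, with 4 points per group in the order of the sample numbers, filled where well above background and open where not, and a line at the group mean. The *Kdr* probe A_51_P316553 separates EH and PH from EL and PL, whereas both detected *Flt1* probes stand high in EH (44.1 to 809) and low in the other groups; heights are not compared between panels.

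At E15.5, the adjusted p was at most 0.05 for 7 of the 15 family probes. EH exceeded EL for 4 of them (4.27% of all probes) and lay below it for 3 (3.83%). Below, a probe that also changed at least 3-fold, the limit of the study's methods, is termed called. In EH against EL 4 family probes were called higher (1.17% of all probes) and 0 lower (0.454%). In PH against PL, 2 passed as higher (6.15%) and 3 as lower (5.41%), of which 2 (1.73%) and 1 (0.916%) were called. Without regard to size, every EH array lay above every EL array for 6 probes (7.02% of all) and below for 5 (9.08%), and every PH array lay above every PL array for 2 (6.54%) and below for 3 (6.27%). The median log2 fold-change of the 15 probes was 0.17 in EH against EL and -0.12 in PH against PL, beside -0.02 and -0.01 over all probes. Probes of *Vegfa*, *Vegfb* and *Vegfc* passed as lower in EH, and those of *Vegfb*, *Vegfc* and *Nrp1* in PH. Probes that passed as higher were those of *Kdr*, *Flt1* and *Nrp2* in EH, and of *Kdr* and *Nrp2* in PH.

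**Figure D2:**
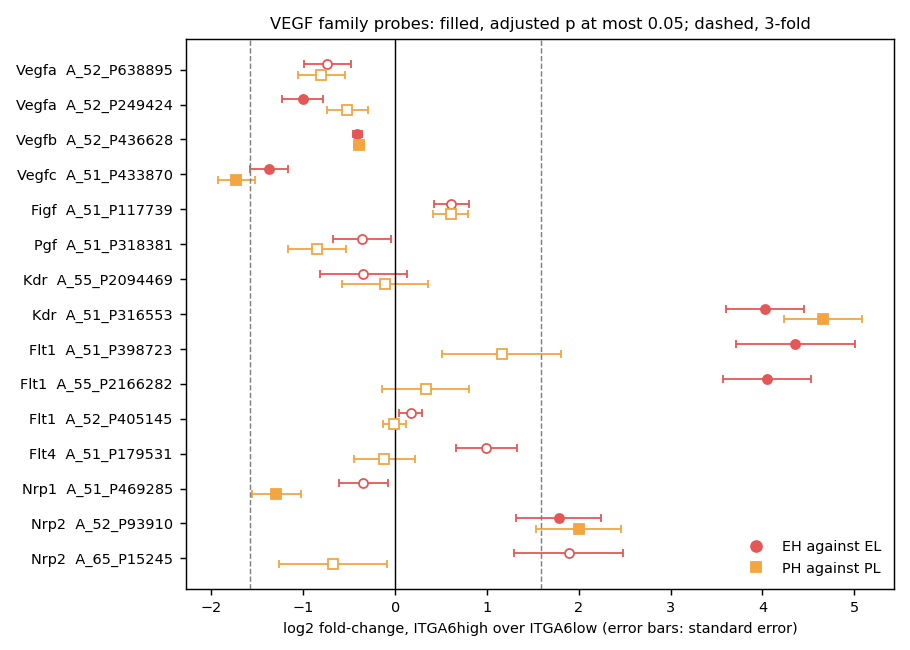
Log2 fold-change of ITGA6high over ITGA6low cells for the 15 family probes at E15.5 (circles) and P2 (squares), with standard errors from limma, filled where the adjusted p was at most 0.05 and with dashed lines at 3-fold. The *Vegfa*, *Vegfb* and *Vegfc* probes lie left of 0, the *Kdr* probe A_51_P316553 lies at 4.03 and 4.66, and the *Flt1* probes A_51_P398723 and A_55_P2166282 lie at 4.36 and 4.05 at E15.5 and at 1.16 and 0.33 at P2.

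Among the ligands, *Vegfb* had the narrowest spread and differed between the fractions at both stages. VEGF-B binds VEGFR-1 and is abundant in heart muscle. Its probe A_52_P436628 (chr19:7057245-7057304, minus strand, mm9) read 3953, 3860, 3975 and 4214 in the EL samples and 3169, 3013, 2822 and 3019 in the EH samples. In the PL samples it read 3903, 4031, 4160 and 4160, and in the PH samples 3057, 3118, 3063 and 3141. Every ITGA6low array lay above every ITGA6high array of its stage. *Vegfb* was 1.33-fold lower in EH (log2 -0.41, SE 0.0508, limma with Benjamini-Hochberg adjusted p = 0.000123) and 1.31-fold lower in PH (log2 -0.39, SE 0.0508, adjusted p = 0.000105). The difference between both changes was 0.02 (SE 0.0719, limma, adjusted p = 0.943).

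*Vegfc* encodes the main growth factor of lymphatic vessels, which also takes part in the growth of coronary vessels. Its probe A_51_P433870 (chr8:55271533-55271592, plus strand) gave 849, 845, 978 and 898 in EL against 288, 277, 410 and 426 in EH. At P2 it gave 343, 387, 287 and 366 in PL against 66.0, 130, 126 and 108 in PH. All 16 arrays detected it, and neither pair of groups overlapped. *Vegfc* fell 2.59-fold in EH (log2 -1.37, SE 0.204, limma, adjusted p = 0.000594) and 3.31-fold in PH (log2 -1.73, SE 0.204, adjusted p = 4.49e-05). Without EH samples 6 and 8 the change at E15.5 was -1.66 (adjusted p = 0.00123), which passes the 3-fold limit. Without PH sample 2 the change at P2 was -1.51 (adjusted p = 3.4e-05), short of that limit. Over 15 alternative settings the P2 change lay between -1.83 and -1.32 and passed in each. With normexp it also fell short of the 3-fold limit. Normexp is another background correction, used here with an offset of 50 added to every signal. By this construction it shrinks the changes of dim probes most, here and below. In order of the level, EL came highest, EH and PL averaged 350 ± 78.7 and 346 ± 42.9 with overlapping samples, and PH came lowest. The signals of 6 smooth muscle and pericyte markers summed to 1889 ± 169 (EL), 949 ± 23.7 (EH), 1325 ± 144 (PL) and 495 ± 32.1 (PH), most of it from *Cspg4*. In EH, *Cspg4* passed as lower, whereas 3 of the other markers, *Rgs5*, *Kcnj8* and *Pdgfrb*, passed as higher. The sum of 8 fibroblast markers, led by *Col1a2*, was 17170 ± 4298, 8853 ± 2312, 897 ± 497 and 676 ± 125. Of the defining fibroblast markers, *Dcn* was detected in every group and *Pdgfra* on the E15.5 arrays alone. The part of these markers in the *Vegfc* result was not tested.

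*Vegfa*, the central angiogenic factor of the family, had 2 probes, and these gave lower means in the ITGA6high cells at both stages. The probe A_52_P249424 read 1488, 1633, 1410 and 1357 in EL and 722, 709, 805 and 693 in EH, with no overlap. It fell 2.01-fold in EH (log2 -1.01, SE 0.221, limma, adjusted p = 0.0105), and with the sample number as a block the adjusted p was 0.0719. Without EH samples 6 and 8 the change was as large (log2 -1.04) and the adjusted p, from fewer arrays, 0.0708. The probe A_52_P638895 (chr17:46154387-46154446, minus strand) read 2058, 2347, 2250 and 2111 in EL and 1407, 1185, 1246 and 1422 in EH. This difference of -0.74 (SE 0.256) did not pass (limma, adjusted p = 0.112), although the groups did not overlap, and it passed with the sample number as a block (adjusted p = 0.00691). At P2 the spread was wider. A_52_P638895 read 5928, 3341, 2938 and 2464 in PL and 3090, 1693, 2115 and 1401 in PH, and A_52_P249424 read 1100, 1429, 2670 and 1957 in PL and 1551, 1229, 1055 and 970 in PH. The groups overlapped on both probes, and neither difference passed (log2 -0.80, adjusted p = 0.0624, and -0.52, adjusted p = 0.191, limma). For A_52_P638895 the result was close to the threshold and passed in 8 of 15 alternative settings. The 2 probes did not rank the PL samples alike, sample 2 being highest on A_52_P638895 and lowest on A_52_P249424. PL samples 2 and 3 lay above samples 4 and 5 on A_52_P638895 and below them on A_52_P249424. The arrays of PL samples 2 and 3 also had more detected probes (39.8% and 39.3%) than those of samples 4 and 5 (36% and 35.7%). The part of this split in the P2 results was not tested. Over the 16 arrays their log2 signals correlated with r = 0.6, as a description.

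*Figf* and *Pgf* were near the limit of detection. VEGF-D, the product of *Figf*, is a second ligand of VEGFR-3, and PlGF, the product of *Pgf*, binds VEGFR-1. The *Figf* probe A_51_P117739 (chrX:160840395-160840454, plus strand) was printed in 10 spots. It read 35.4, 33.2, 25.6 and 27.4 in EL and 39.9, 53.1, 39.8 and 53.3 in EH, with every EH sample above every EL sample (log2 0.61, SE 0.19, limma, adjusted p = 0.0712). It was not well above background on any P2 array, where it averaged 10.3 ± 1.9 in PL and 15.8 ± 4.02 in PH. The *Pgf* probe A_51_P318381 (chr12:86508335-86510337, minus strand, a span longer than the probe) averaged 27.5 ± 5.13 in EL and 21.4 ± 3.9 in EH, detected on all 8 arrays (limma, adjusted p = 0.64). It was detected on 2 PL arrays and 0 PH arrays (limma, adjusted p = 0.118).

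*Kdr* had 2 probes on the minus strand of chromosome 5, and only 1 of them changed between the fractions. The probe A_55_P2094469, shown above, was detected on all 16 arrays. It read 1037, 984, 984 and 1142 in EL and 572, 938, 1024 and 804 in EH. In PL it read 272, 344, 1104 and 1512, and in PH 405, 522, 540 and 1008. The groups overlapped at both stages, and the PL samples alone spanned more than the gap between any pair of group means. The differences were -0.34 (SE 0.471, limma, adjusted p = 0.802) at E15.5 and -0.11 (SE 0.471, adjusted p = 1) at P2.

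The *Kdr* probe A_51_P316553 lies at chr5:76329309-76329368, 1086 bases further towards the 3′ end, and was printed in 10 spots. It read 19.6, 14.8, 26.7 and 12.8 in EL and 182, 138, 576 and 491 in EH. In PL it read 5.96, 10.9, 8.43 and 5.06, and in PH 164, 198, 220 and 160. It was detected on the 8 ITGA6high arrays, on EL samples 2 and 6, and on 0 PL arrays. The probe was called at both stages, 16.3-fold higher in EH (log2 4.03, SE 0.424, limma, adjusted p = 3.23e-05) and at least 9.45-fold higher in PH (log2 4.66, SE 0.424, adjusted p = 4.11e-06). With normexp, whose offset shrinks the changes of dim probes, these changes were 2.13 and 1.83 on the log2 scale, and the probe was called in both. Such a lower bound sets the brighter mean against the level at which the dimmer arrays begin to detect a probe. The test of a difference between the stages did not pass (difference 0.63, SE 0.599, limma, adjusted p = 0.769, and 1.51, adjusted p = 0.132, without EH samples 6 and 8). Within an array, the CV of its spots was 3.7% to 7.02% in EH and 4.37% to 7.53% in PH, against 10.4% to 39.3% in EL and 28.8% to 42.6% in PL. Over the 16 arrays the log2 signals of the 2 *Kdr* probes correlated with r = -0.07.

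At E15.5 the higher samples of this probe, EH 6 and 8, were those with the higher sums of endothelial markers. Without them the change was 3.16 (limma, adjusted p = 0.000199), and within the first and the second slide of the E15.5 arrays it was 3.87 and 4.86. At P2 the same probe read 160 to 220 in the PH samples while *Cdh5*, *Tie1* and *Tek* were detected on 0 PH arrays and *Pecam1* on 1. Of the other endothelial markers, *Nfatc1* was detected on 4 PH and 4 PL arrays, and *Plvap* on 4 PH and 3 PL arrays. *Eng* was detected on 2 PH and 0 PL arrays, and *Cldn5* and *Sox18* each on 1 PH and 0 PL arrays. *Emcn*, *Esam*, *Sox17*, *Erg* and *Npr3* were detected on 0 PH arrays. Every PH sum of the 14 markers (278 to 348) lay above every PL sum (173.9 to 229.5). *Nfatc1*, with means of 179.5 in PH and 96.3 in PL, was the largest part of both sums. Of the 14 endothelial markers, 11 passed as higher in EH and 1, *Nfatc1*, in PH. The part of endothelial cells in the *Kdr* result was not tested.

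*Flt1* stood high in EH and was at or near the detection limit in the other groups. Its probe A_51_P398723 (chr5:148373791-148373850, minus strand) read 6.99, 26.0, 33.8 and 14.5 in EL and 195, 145, 809 and 692 in EH. At P2 it read 12.7, 3.33, 3.30 and 4.39 in PL and 10.3, 9.53, 18.7 and 8.32 in PH, detected in PH sample 4 alone. *Flt1* was 20.5-fold higher in EH than in EL by this probe (log2 4.36, SE 0.65, limma, adjusted p = 0.000609), detected on 2 of 4 EL arrays. Over 17 alternative settings this change lay between 2.51 and 4.79 on the log2 scale and passed in each. The probe A_55_P2166282 (chr5:148446872-148446931) read 4.09, 5.22, 6.67 and 12.4 in EL and 69.4, 44.1, 243 and 177 in EH, and was detected on the 4 EH arrays alone. It was at least 6.58-fold higher in EH (log2 4.05, SE 0.477, limma, adjusted p = 8.47e-05). With normexp the change was 1.30 (adjusted p = 0.000725), below the 3-fold limit. Neither probe passed in PH against PL (log2 1.16, adjusted p = 0.374, and 0.33, adjusted p = 0.842, limma).

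The test of the difference between the stages was passed by A_55_P2166282, with a log2 difference of -3.72 (SE 0.674, limma, adjusted p = 0.00699). Since 0 EL, PL and PH arrays detected this probe, the size of the difference depends on signals near background, and with normexp it was -1.21 (adjusted p = 0.0368), below the 3-fold limit. Of the 15 probes 1 passed as lower (1.35% of all probes) and 0 as higher (1.81%), and the 1 was also called (0.602%). For A_51_P398723 the difference was -3.20 (SE 0.919, limma, adjusted p = 0.0929). Without EH samples 6 and 8 these differences were -2.76 (adjusted p = 0.0165) and -2.12 (adjusted p = 0.363), and the changes at E15.5 were 3.10 (adjusted p = 0.000683) and 3.28 (adjusted p = 0.0134). The *Flt1* samples ranked as the endothelial sums did within EH, with sample 6 highest and sample 3 lowest, and the part of endothelial cells in the result was not tested. A last *Flt1* probe, A_52_P405145 (chr5:148465976-148466035), was not well above background on any of the 16 arrays. The log2 signals of the 2 detected probes correlated with r = 0.94 over the 16 arrays.

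*Flt4* was detected on 1 of 16 arrays, EH sample 8, where its probe A_51_P179531 (chr11:49465646-49465705) read 17.3. The other EH samples read 7.36, 4.16 and 4.51, and the change in EH did not pass (log2 0.99, SE 0.332, limma, adjusted p = 0.0965). The lymphatic marker *Lyve1* was detected on 3 EH arrays, 1 EL array and 0 P2 arrays, and *Reln* on none. The other lymphatic markers, *Prox1* and *Pdpn*, which are not limited to lymphatic cells, were detected on all 16 arrays.

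**Figure D3:**
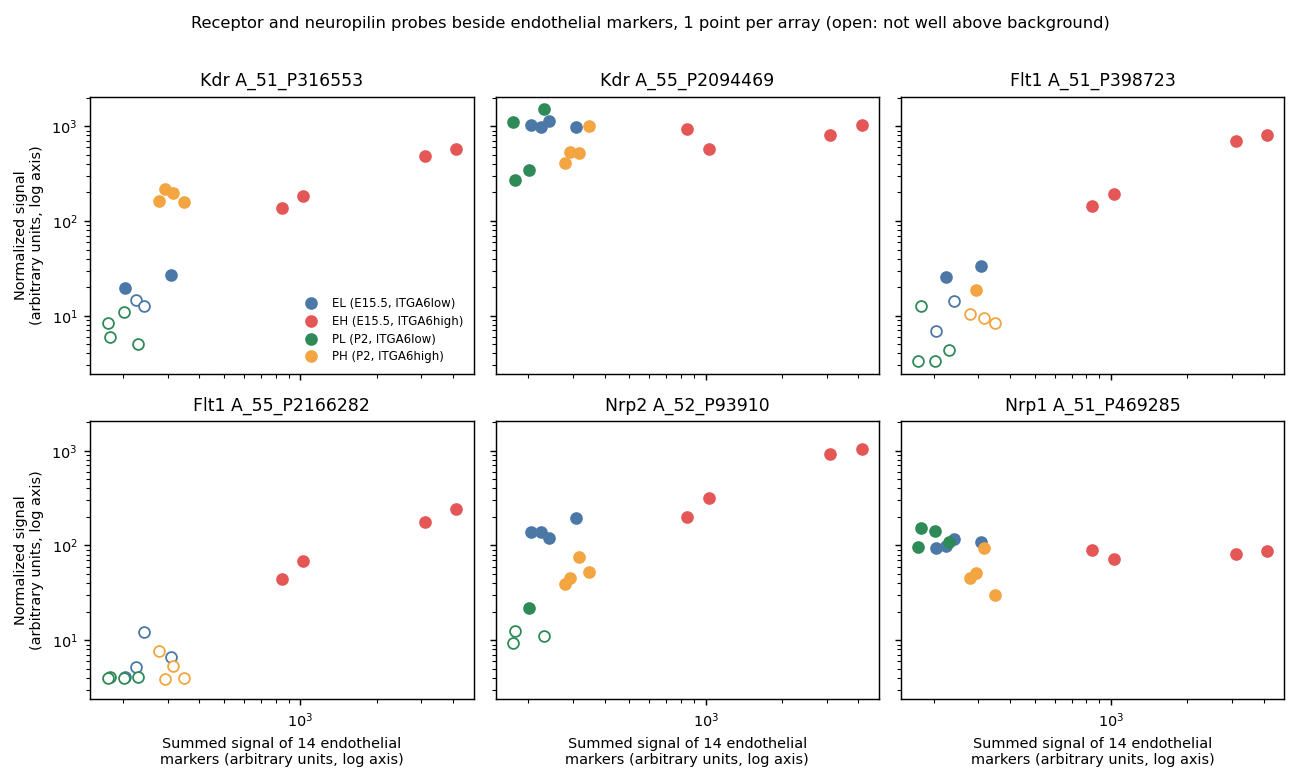
Normalized signal of 6 receptor and neuropilin probes (vertical, arbitrary units, log axis) against the summed signal of 14 endothelial markers (horizontal, arbitrary units, log axis), 1 point per array, colored by group and open where the probe was not well above background. The 4 PH points of *Kdr* A_51_P316553 lie at 160 to 220 with endothelial sums of 278 to 348. This *Kdr* probe, *Flt1* and *Nrp2* are highest on EH samples 6 and 8. The points share arrays and no test was made.

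Of the neuropilins, *Nrp1* passed as lower in PH, and 1 of 2 *Nrp2* probes as higher in EH and in PH. *Nrp1*, the co-receptor that forms a complex with VEGFR-2, was detected on all 16 arrays by its probe A_51_P469285, shown above. It read 94.1, 98.6, 109 and 118 in EL and 71.6, 89.4, 88.0 and 80.6 in EH, without overlap, yet the difference of -0.35 (SE 0.266) did not pass (limma, adjusted p = 0.578). At P2 it read 154, 141, 97.3 and 110 in PL and 45.0, 94.2, 51.1 and 29.7 in PH, again without overlap, and fell 2.45-fold (log2 -1.29, SE 0.266, limma, adjusted p = 0.00457). The change did not differ detectably between the stages (difference -0.94, SE 0.376, limma, adjusted p = 0.283), but without PH sample 3, which had the highest PH signal, the difference passed (-1.25, adjusted p = 0.0249).

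*Nrp2*, the co-receptor of veins and lymphatic vessels, was called higher in both ITGA6high fractions by its probe A_52_P93910 (chr1:62865129-62865188, plus strand). It read 138, 138, 195 and 119 in EL and 320, 199, 1043 and 924 in EH, with sample 3 of EH close above the highest EL sample. It read 12.6, 21.8, 9.34 and 11.0 in PL, where 1 array detected it, and 39.7, 76.3, 45.8 and 52.2 in PH, where all did. The changes were 3.44-fold at E15.5 (log2 1.78, SE 0.465, limma, adjusted p = 0.0299) and 3.99-fold at P2 (log2 2.00, SE 0.465, adjusted p = 0.0107), the latter against a PL group detected on 1 of 4 arrays. Without EH samples 6 and 8 the E15.5 change was 0.80 and no longer passed (adjusted p = 0.314). Those 2 samples averaged 3.79 times EH samples 2 and 3 on this probe, and 3.85 times in the sum of endothelial markers. The part of endothelial cells in the *Nrp2* result was not tested. Leaving out EL sample 2, 3 or 8 or EH sample 6 or 8 also ended the E15.5 call (adjusted p 0.0737 to 0.0964). With normexp the probe was not called at E15.5 either. With signals below background set to a floor, the P2 change was 1.32 (adjusted p = 0.046), short of the 3-fold limit. With normexp, the P2 change was 0.59 and did not pass (adjusted p = 0.211). The probe A_65_P15245 (chr1:62843298-62843357), 21831 bases away, was detected on 3 EH arrays and 1 PL array. It averaged 44.3 ± 28.4 in EH and 10.7 ± 4.39 in EL (limma, adjusted p = 0.0721), and read 4.48 to 5.23 in PH. As this probe was at background in PH, it gives no measure of the change at P2. The log2 signals of the 2 probes correlated with r = 0.74 over the 16 arrays.

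Across the stages, 4 family probes passed as lower in PL than in EL (10% of all probes), 1 of them called (2.15%), and 0 as higher (9.7%) or called higher (1.6%). In PH against EH 7 passed as lower (8.37%), 5 of them called (2.1%), and 1 as higher (9.12%), which was not called (1.3%). Stage, isolation protocol and slide cannot be told apart in these comparisons, since all P2 arrays lay on a slide of their own and P2 cells were prepared without the ERBB-2 step. *Nrp2* A_52_P93910 was 11.2-fold lower in PL than in EL (log2 -3.48, SE 0.465, limma, adjusted p = 8.59e-05), although 1 of 4 PL arrays detected it, and the change was -1.39 with normexp. It was 9.6-fold lower in PH than in EH (log2 -3.26, SE 0.465, limma, adjusted p = 0.000185), and 4.87-fold without EH samples 6 and 8. *Nrp2* A_65_P15245, detected on 0 PH arrays, was at least 2.05-fold lower in PH (limma, adjusted p = 0.00301), and did not pass without these samples (adjusted p = 0.0649). *Vegfc* was 2.59-fold lower in PL (limma, adjusted p = 0.000208) and 3.31-fold lower in PH (adjusted p = 3.7e-05) than in the same fraction at E15.5, the latter 2.72-fold (adjusted p = 0.00137), below the 3-fold limit, without EH samples 6 and 8. *Figf* was at least 1.55-fold lower in PL (limma, adjusted p = 3.65e-05) and at least 2.55-fold lower in PH (adjusted p = 4.58e-05). *Flt1* was at least 6.02-fold lower in PH than in EH by A_55_P2166282 (limma, adjusted p = 1.74e-05) and lower by A_51_P398723 (log2 -4.99, adjusted p = 8.45e-05). As 1 of 4 PH arrays detected A_51_P398723, the size of its change depends on signals near background. Both passed without EH samples 6 and 8 (adjusted p = 0.000145 and 0.00212), the latter with a log2 change of -3.92. The one probe higher in PH was *Vegfa* A_52_P249424 (log2 0.69, SE 0.221, limma, adjusted p = 0.0454), which no longer passed when any EH sample, or PH sample 2, 3 or 4, was left out. *Kdr* A_51_P316553 was lower in PL than in EL (limma, adjusted p = 0.0475) and *Pgf* in PH than in EH (adjusted p = 0.046), and both results ended when 1 of several samples was left out: EL sample 2, 3 or 6 or PL sample 2, 4 or 5 for *Kdr*, and EH sample 3, 6 or 8 or PH sample 2, 3 or 4 for *Pgf*. Detected on 0 PL and 2 EL arrays, this *Kdr* probe changed by -0.24 with normexp (adjusted p = 0.641) and by -0.01 with the floor (adjusted p = 0.985). *Vegfb* differed by 0.02 (limma, adjusted p = 0.877) between PL and EL and by 0.04 (adjusted p = 0.674) between PH and EH. The sums of endothelial, leukocyte and fibroblast markers were also lower in PH than in EH and in PL than in EL, as given above. In PL, 7 of 8 fibroblast, 3 of 14 endothelial and 1 of 5 leukocyte markers passed as lower. In PH, 8 of 8 fibroblast, 11 of 14 endothelial and 5 of 5 leukocyte markers did. The part of these markers in the changes between the stages was not tested.

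Around the family, 31 pathway genes were read by their brightest probe. In EH against EL, 6 passed as higher (4.27% of all probes) and 2 as lower (3.83%), and in PH against PL 3 as higher (6.15%) and 4 as lower (5.41%), with median log2 fold-changes of -0.01 and -0.12 over the list. In EH, 5 were called higher (1.17% of all probes) and 0 lower (0.454%). In PH, 1 was called higher (1.73%) and 0 lower (0.916%). By role, the 6 genes of oxygen sensing gave 1 lower in EH and 1 higher and 1 lower in PH. The 2 genes that process VEGF-C, *Ccbe1* and *Adamts3*, gave no pass in either comparison. Of 10 signalling genes, 2 passed as higher in EH, and 1 as higher and 2 as lower in PH. Of 6 genes induced by VEGF, 3 passed as higher in EH and 1 in PH. Of 7 neuropilin partners, 1 passed as higher and 1 as lower in EH, and 1 as lower in PH.

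*Angpt2*, the antagonist of the receptor Tie2 that loosens vessels, was the only pathway gene called in both comparisons. It read 6.68, 3.73, 3.74 and 6.49 in EL against 87.9, 75.3, 71.9 and 78.7 in EH, and 3.72, 14.9, 3.78 and 3.80 in PL against 49.4, 97.8, 69.5 and 72.0 in PH. It was detected on the 8 ITGA6high arrays and on 0 ITGA6low arrays, at least 4.8-fold higher in EH (limma, adjusted p = 2.03e-05) and at least 3.61-fold higher in PH (adjusted p = 1.79e-05). EH samples 6 and 8 were not the higher ones here.

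The other 4 called pathway genes were called in EH alone, and all were higher there. *Ptprb*, the phosphatase VE-PTP that restrains VEGFR-2 and Tie2, averaged 13.4 ± 6.28 in EL and 218 ± 176 in EH (12.7-fold, limma, adjusted p = 0.00378), with 2 of 4 EL arrays detecting it, and without EH samples 6 and 8 it was 5.29-fold higher and did not pass (adjusted p = 0.0607). *Nos3*, the endothelial nitric oxide synthase, read 64.5, 78.5, 89.4 and 86.7 in EL and 355, 250, 981 and 1013 in EH (6.89-fold, limma, adjusted p = 0.000358), and 3.77-fold without EH samples 6 and 8 (adjusted p = 0.001). *Plxnd1*, a semaphorin receptor of endothelial cells, read 232, 252, 362 and 263 in EL and 1200, 937, 4009 and 3462 in EH (7.28-fold, limma, adjusted p = 0.000409), and 3.88-fold without these samples (adjusted p = 0.00116). Its change differed between the stages (difference -3.80, SE 0.575, limma, adjusted p = 0.00204, and -2.90 without EH samples 6 and 8), with 679 ± 207 in PL and 346 ± 57.9 in PH, and for the other 3 the test of that difference did not pass. *Dll4*, a Notch ligand of tip cells, was detected on 2 EH arrays only and is given without a fold (limma, adjusted p = 0.00167). It passed without EH samples 6 and 8 (adjusted p = 0.0308) but was no longer called. For *Ptprb*, *Nos3* and *Plxnd1* the highest arrays were again EH samples 6 and 8. Of the genes that passed below 3-fold, *Egln3*, a prolyl hydroxylase that marks hypoxia-inducible factors for removal, was 1.99-fold lower in EH (limma, adjusted p = 4.86e-05) and 1.78-fold lower in PH (adjusted p = 0.000121). *Plxna1*, a semaphorin receptor that pairs with neuropilins, also passed as lower in both, 1.80-fold in EH (limma, adjusted p = 0.0438) and 2.06-fold in PH (adjusted p = 0.00964). Without EH samples 6 and 8, and so with fewer arrays, its change in EH was 1.94-fold and did not pass (adjusted p = 0.0673). The early response gene *Nr4a1* was 1.91-fold higher in EH (limma, adjusted p = 0.0163), and without these samples 1.82-fold (adjusted p = 0.149). *Gpc1* was 2.18-fold higher in PH (limma, adjusted p = 1.69e-05) and did not pass in EH (adjusted p = 0.547). Its change also differed between the stages (difference 0.96, SE 0.168, limma, adjusted p = 0.00577, and 0.97, adjusted p = 0.0324, without EH samples 6 and 8).

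**Figure D4:**
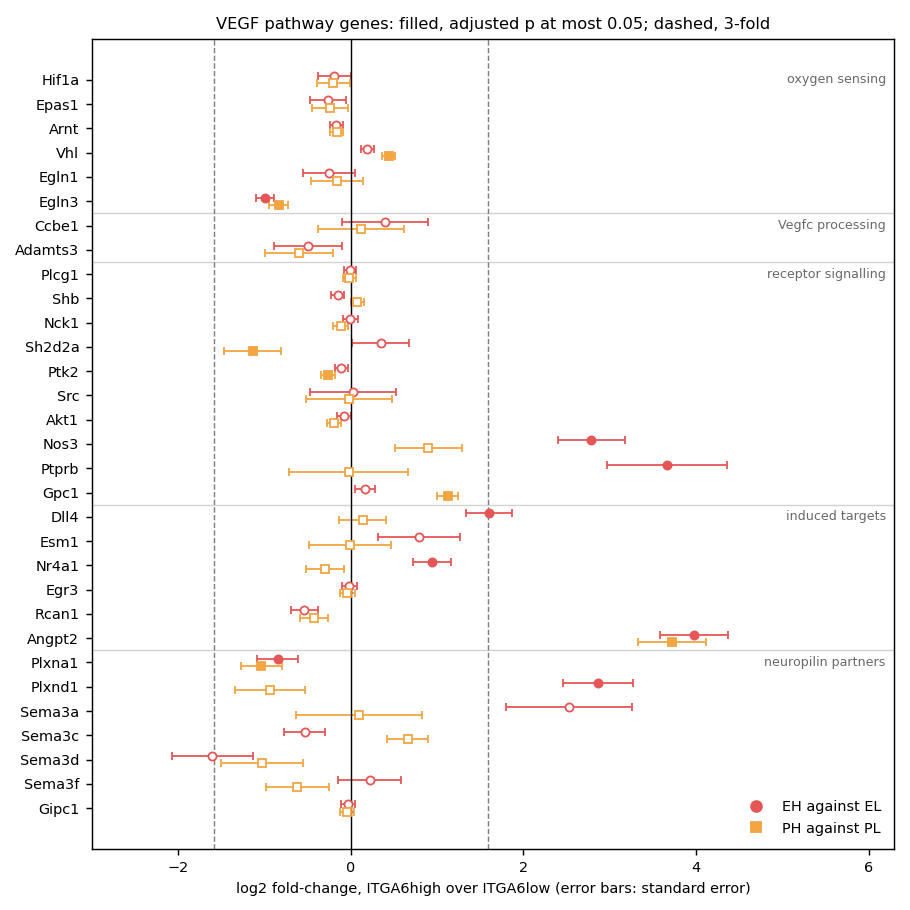
Log2 fold-change of ITGA6high over ITGA6low cells for the 31 pathway genes, grouped by role, at E15.5 (circles) and P2 (squares), with standard errors from limma, filled where the adjusted p was at most 0.05 and with dashed lines at 3-fold. *Angpt2* lies at 3.98 and 3.72, whereas *Nos3*, *Ptprb* and *Plxnd1* lie at 2.78, 3.66 and 2.86 at E15.5 and did not pass at P2.

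The patterns of the 2 *Kdr* probes were also described by the genes most like them among 15629 detected gene names, by Pearson correlation of log2 signals over the 16 arrays. For A_55_P2094469, the brighter probe, these were 2 transcripts without a gene symbol (r = 0.994 and 0.982), 2 genomic intervals without a gene symbol (r = 0.983 and 0.982) and the predicted gene *Gm9757* (r = 0.982), with means of 21183 (EL), 17067 (EH), 15486 (PL) and 13274 (PH). For A_51_P316553, looked up after its values were seen, they were *Pla2g7* (r = 0.974), *Nr2f2* (r = 0.971), *Maged1* (r = 0.968), *Nr2f1* (r = 0.966) and *Txndc5* (r = 0.965). *Nr2f2*, which encodes the atrial transcription factor COUP-TFII, averaged 60.2 (EL), 1407 (EH), 16.2 (PL) and 1180 (PH). All points of these correlations share the arrays and their normalization.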

How the data were processed

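Cy3-labeled cRNA from 16 samples was hybridized to single-color Agilent arrays (mm9 annotation). The authors deposited scanner output of Agilent Feature Extraction 10.7.3.1, with background-subtracted signal intensities, and their log2 values after quantile normalization. Here the processed intensities were used without outlier spots, spots of a probe were averaged, and 55681 probes were quantile normalized and put on a log2 scale, which assumes like signal distributions in all fractions. These values matched the deposited log2 values (r = 1). A mean per group was fitted over all 16 arrays with limma 3.58.1 in R 4.3.3, with Benjamini-Hochberg adjustment over all probes. Calls needed a 3-fold change as well as an adjusted p within 0.05. The study's own test was an analysis of variance with a Tukey test, used here as an alternative.

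Every probe of the 10 genes was reported, and other genes by their brightest probe. From the pathway list the genes called in either stage were named (at most 4 per direction and comparison, with *Dll4* beyond them), and for *Kdr* the 5 most similar genes. *Egln3*, *Plxna1*, *Nr4a1*, *Gpc1*, *Ccbe1* and *Adamts3* were named after their values were seen. The family members and gene lists were chosen with earlier results of these data known. E15.5 arrays lay on 2 slides, EL 3, EL 6 and EH 6 on the second, and P2 arrays on another. EL and EH of the same number deviated together (r = 0.256, 0.189, 0.45 and 0.379), and not all P2 pairs did (r = 0.375, 0.176, -0.0305 and 0.542). Samples of unlike numbers were not compared, and EL and EH of numbers 2, 6 and 8 also shared a slide. These values therefore do not settle whether the numbers pair the samples. The main fit used no pairing, and the sample number as a block was an alternative. Of 120 pairs of arrays, 0 were identical. Scripts were checked on simulated data. RefSeq matched all 10 genes. The sequence and position of 1 *Vegfa* probe are not reported here.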

Additional observations from a re-analysis of the deposited data

Results flagged for a closer look

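In 4 of 60 groups of 4 arrays 1 sample lay far from the others (Dixon's ratio of the gap to the range), where chance alone gives about 3. These were EH sample 2 (ratio 0.953) and PL sample 3 (0.917) of *Flt1* A_52_P405145 and PL sample 4 (0.943) of *Flt4* A_51_P179531, none of them well above background, and PL sample 3 (0.87) of *Nrp2* A_65_P15245. That last array read 25.9 and was well above background, against 4.65 to 5.81 in the other PL samples, and the same sample also had the highest PL signal on the *Nrp2* probe A_52_P93910 (21.8).

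The change between the fractions differed between E15.5 and P2 for *Flt1* A_55_P2166282 (log2 difference -3.72, limma, adjusted p = 0.00699, and -1.21 with normexp). It was higher in 4 of 4 EH samples, and 0 of 8 P2 arrays detected it.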

How the results depend on the processing

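Of 75 probes and comparisons, 51 kept their side of the threshold in every alternative, and over all alternatives 1175 values kept it, 46 newly passed, 36 no longer passed and 3 reversed. Among the values that kept it, 47 changed sign where neither value passed. Normexp (offset 50) adds a constant to every signal, which shrinks the changes of dim probes most. It lowered the calls over all probes to 164 higher and 43 lower in EH against EL, 276 and 142 in PH against PL, 95 and 138 for the difference between the stages, 208 and 252 in PL against EL, and 186 and 240 in PH against EH. It left 2 family probes called higher in EH, 1 higher (passing 1) and 0 lower in PH against PL, 0 lower in PL against EL and 2 lower in PH against EH, and 2 passed as lower in the difference. A floor at the lowest detected signal gave 426 probes called higher in EH against EL, 572 higher and 302 lower in PH against PL, 549 higher and 599 lower in PL against EL, and 631 lower in PH against EH. With the floor 5 family probes passed as lower in EH, 1 was called higher in PH against PL, 2 were called and passed as lower in the difference, and 4 passed as higher in PH against EH. Passing probes of the whole array were not counted in any alternative, so the family's passing counts are not compared with it. The same holds for the family's called count in the difference with the floor. Probes at the floor compare the floors of the arrays, and by this construction *Flt1* A_52_P405145 reversed to -0.47 in EH against EL and to 0.60 in PH against EH, and *Flt4* to 0.47 in PH against EH.

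Scaling to the 75th percentile, under which the median log2 change of all probes was -0.184 in EH against EL, -0.141 in PH against PL, 0.186 in PL against EL and 0.19 in PH against EH, gave 2 family probes called and passing as lower in the difference, 2 called lower and 1 passing as higher in PL against EL. Testing detected probes alone gave 2 and 2, and 2 and 1, for the same counts, with 5 passing as lower in PH against PL. The slide as a block gave 2 called and passing as lower in the difference. The second such probe was *Flt1* A_51_P398723 in each of these. Without EH samples 6 and 8, an alternative chosen after seeing the data, 1 family probe was called lower in EH, and in PH against EH 3 were called lower and 0 passed as higher. For this fit, the 75th percentile, the detected probes and the slide block, no counts over all probes are given. The family counts in these settings are therefore not compared with the whole array. Leaving out 1 array at a time gave 1 to 2 passing as lower in the difference, 1 to 3 called lower and 0 to 1 passing as higher in PL against EL, 0 to 2 called lower in PH against PL, and 0 to 1 passing as higher in PH against EH. Over all probes it gave 284 to 369 called lower in the difference, 1154 to 1262 in PL against EL and 491 to 580 in PH against PL.

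With the sample number as a replicate block, 674 probes were called higher and 243 lower in EH against EL, and at E15.5 the family results that crossed the threshold were those of *Vegfa* given above. At P2, where not all samples of the same number deviated together, 946 were called higher and 501 lower, and *Vegfa* A_52_P638895 passed (adjusted p = 0.00315). The methods' test called 662 higher and 256 lower in EH against EL and 946 and 497 in PH against PL, and under it *Figf* passed as higher at both stages (adjusted p = 0.0384 and 0.0412).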
